A study of Mus musculus with 11 samples.

Results

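The RNA of 10 heat shock chaperone genes (Hspa1a, Hspa1b, Hspa8, Hsph1, Dnajb1, Bag3, Hsp90aa1, Hspb1, Hspd1 and Hspe1) was followed in mouse liver. The genes were chosen by symbol among the 19207 genes of the deposited count table, with earlier results of these data known. Counts of members set beside the share of all genes are therefore a description. All 10 were among the 16866 genes with enough reads to test. The livers came from C57BL/6 mice that were wild type (WT) or lacked Hmgb2 (Hmgb2-/-, KO), which encodes a DNA-bending HMG-box protein. The mice had received oil, the usual carrier, or carbon tetrachloride (CCl4), a solvent that injures hepatocytes around the central vein. Wild-type liver gave 3 libraries after oil (WT_Oil 1, 2 and 3) and 3 after CCl4 (WT_CCL4 4, 5 and 6). Knockout liver gave 2 libraries after oil (KO_Oil 11 and 12) and 3 after CCl4 (KO_CCL4 24, 25 and 15, of which 24 and 25 carry the letter E in their titles and all other libraries the letter S). The labels give no sex, age, dose, number of doses or time after dosing. They do not say whether each library is a separate mouse, so p-values measure the spread between these libraries. How the Hmgb2 allele was made, and whether all cells lack it, is not given.

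Heat shock proteins keep other proteins folded. HSP70 proteins (the inducible twins Hspa1a and Hspa1b and the constitutive Hspa8) bind unfolded stretches and let go in a cycle driven by ATP. J-domain proteins such as Dnajb1 deliver the substrate and start ATP hydrolysis, and exchange factors such as the HSP110 protein Hsph1 and the BAG-domain protein Bag3 release the nucleotide. Hsp90aa1 is the inducible cytosolic HSP90, which matures kinases and steroid hormone receptors, Hspb1 (HSP25) is a small chaperone that holds unfolded protein and binds actin, and Hspd1 and Hspe1 form the chaperonin of the mitochondrial matrix. Their shared activator in stressed cells is the transcription factor HSF1, which binds heat shock elements, inverted repeats of the unit GAA. In liver these genes also follow body temperature and feeding through the day.

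Sequences around the start sites were searched for pairs of these units. RefSeq windows of 250 bases before to 50 after the start site (GRCm38.p6) were found for 8 of the 10 members, in 11 windows, and none was used for Hspa8 and Hsp90aa1. A head-to-head pair of units, GAANNTTC, was searched on both strands and stood in windows of 7 of the 8 members, against 9.04% of the 27025 genes with a window. The tail-to-tail pair, TTCNNGAA, stood in windows of 3 members (Hspd1, Hspe1 and Hsph1) and of 9.6% of genes. The 3-unit form, in which a pair of each kind shares its middle unit, was read in both orientations and overlaps both pairs. It was found for the same 3 members and for 0.662% of genes. The pair of Bag3 and, for Hsph1, the head-to-head pair and the 3-unit form lie after the start site. Either pair stood in windows of 17.0% of genes, and Dnajb1 was the member with neither in its 2 windows. The stretches that hold the pair in capitals were read 5′ to 3′ on the gene's own strand, 150 bases up to the start site for the HSP70 twins and Hspb1, whose pairs all lie before it. Shorter stretches of 30 bases are given for Hsph1 and Hspe1. That of Hsph1 holds its tail-to-tail pair before the start site and not its 3-unit form. That of Hspe1 holds overlapping matches of the 3-unit form, from -89 to -77 and from -84 to -72 bases from the start site.
Hspa1b chr17:34959239-34959388 (minus strand): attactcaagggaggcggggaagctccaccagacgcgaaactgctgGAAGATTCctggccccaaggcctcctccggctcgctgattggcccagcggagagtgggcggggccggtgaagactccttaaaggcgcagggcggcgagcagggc
Hspa1a chr17:34972157-34972306 (minus strand): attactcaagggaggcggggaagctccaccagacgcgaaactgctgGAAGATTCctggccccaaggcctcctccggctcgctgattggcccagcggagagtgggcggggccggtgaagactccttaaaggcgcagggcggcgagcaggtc
Hspb1 chr5:135887769-135887918 (plus strand): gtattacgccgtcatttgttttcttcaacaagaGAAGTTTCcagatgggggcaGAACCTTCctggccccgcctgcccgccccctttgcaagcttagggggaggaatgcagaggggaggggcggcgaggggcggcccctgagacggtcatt
Hsph1 chr5:149636347-149636376 (minus strand): agaatctTTCTCGAAggctcgagaagaagg
Hspe1 chr1:55088053-55088082 (plus strand): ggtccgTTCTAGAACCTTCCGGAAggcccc
The element of Hspe1 is also the one found before the second start site of Hspd1, which is read from the opposite strand. A match is a description of the letters and does not show that HSF1 binds there.

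**Figure D1:**
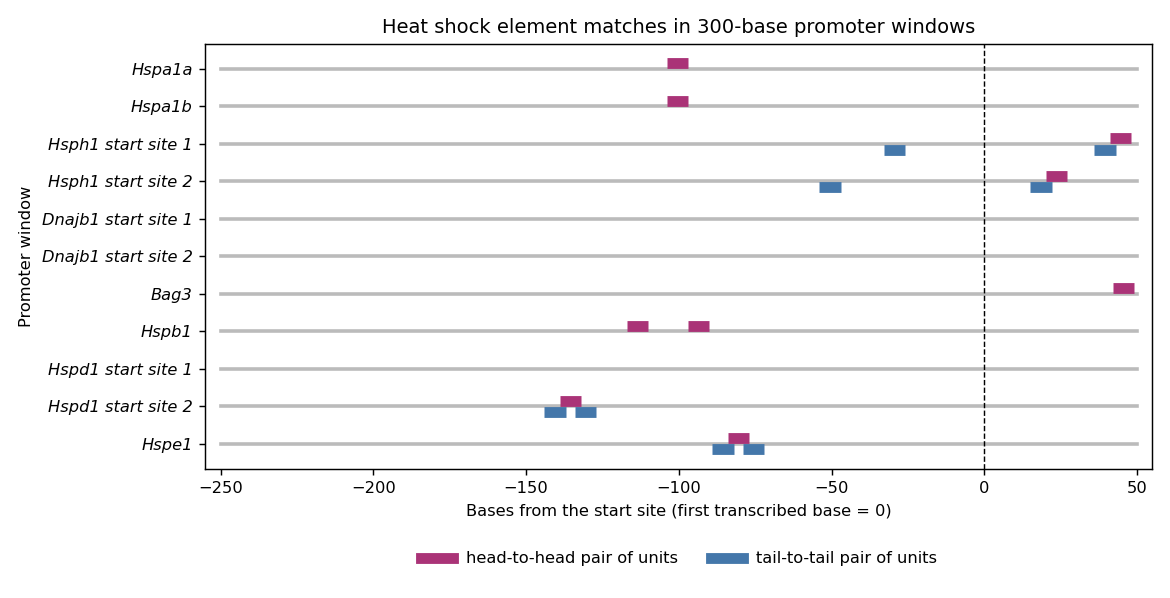
Positions of heat shock element pairs in the promoter windows of 8 members, in bases from the start site (dashed line, first transcribed base at 0), with head-to-head pairs (GAA unit first) in purple and tail-to-tail pairs in blue. Hspa1a and Hspa1b carry theirs at the same place, from -104 to -97, and the 2 windows of Dnajb1 are empty.

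Hspa1a and Hspa1b are neighbours on chromosome 17 (GRCm38 coordinates of the deposited table, 34969190 to 34972156 and 34956436 to 34959238, both on the minus strand) and are close to copies of each other. Their longest reading frames differed at 8 of 1926 aligned bases (99.58% identity), their promoter windows differed at 4 of 300 bases, and 58.8% of the 50-base windows of the Hspa1a transcript also stood in the Hspa1b transcript. How reads with more than one match were handled is not given in the sources used here, so the split of reads between the twins is uncertain. Hspa1a held 190 reads and Hspa1b 1999 reads over all libraries, so that Hspa1a had 8.68% of the pair's reads. Hspa1a also overlaps the antisense gene Gm20481 by 2225 bases, and that gene had 1 to 12 reads a library. Of the other members, Hspa8 (chromosome 9, 40800984 to 40810087) holds 3 snoRNA genes in its span, and Bag3 (chromosome 7, 128523616 to 128546981) overlaps 2610306O10Rik by 612 bases. Hspd1 (chromosome 1, 55077835 to 55088243, minus strand) and Hspe1 (55088132 to 55091307, plus strand) start head to head and overlap by 112 bases. The spans of Hsph1 (chromosome 5, 149614287 to 149636376), Dnajb1 (chromosome 8, 83608193 to 83612653), Hsp90aa1 (chromosome 12, 110690605 to 110702728) and Hspb1 (chromosome 5, 135887919 to 135889563) overlap no other annotated gene. Whether strand was used in counting is not given.

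The libraries held 7306082 (KO_Oil 11) to 14116886 (WT_CCL4 4) counted reads. Both KO_Oil libraries were the shallowest, with KO_Oil 12 at 7506468 and the next, WT_CCL4 6, at 9759816. The part of depth in the differences of this group was not tested. The level of Hmgb2 itself, in CPM (reads scaled to library size and composition), lay between 1.93 and 7.42 in the 6 wild-type libraries. In the 5 knockout libraries it lay between 0 and 0.951 CPM, with no overlap. The knockout was lower by 3.81 on the log2 scale after CCl4 (adjusted p = 0.0112) and lower by 2.14 after oil (adjusted p = 0.115). The 9 hepatocyte markers, from Cps1 to Asgr1, were detected in every group, with a summed level of 40000 to 64900 CPM. Among wild-type libraries, the deviations of genes from the other libraries of the group rose with GC content in WT_Oil 1 and WT_CCL4 5. Spearman's rho was 0.549 in WT_Oil 1 and 0.324 in WT_CCL4 5 over 15276 genes, against -0.438 to -0.006 in the other wild-type libraries. The value of WT_CCL4 4 was -0.396, larger in size than that of WT_CCL4 5. Each library was set against the others of its group, so values within a group depend on each other. Which library is the unusual one was not tested. The members' median deviation was 0.40 (log2) in WT_Oil 1 and 0.51 in WT_CCL4 5, and the members' transcripts run from 43.7% GC (Hsp90aa1) to 61.7% GC (Hspb1) around an all-gene median of 49.2%. Results that rest on these libraries are given without them as well. In whole liver, fewer cells of a type and less RNA per cell cannot be told apart.

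Per length, Hspa8 was the most abundant member in every group, with 461 ± 92.4 CPM per kb (SD, n = 3) in WT_Oil. It was followed there by the chaperonin genes, Hspd1 at 139 ± 21.9 and Hspe1 at 71.6 ± 10.7 CPM per kb. Hsp90aa1 had 48.4 ± 12.65 CPM per kb and Hspb1 had 20.4 ± 4.89. Bag3 and Hspa1b lay together at 13.5 ± 2.62 and 13.5 ± 7.79 CPM per kb, followed by Dnajb1 at 9.42 ± 1.53, Hsph1 at 7.35 ± 0.857 and Hspa1a at 0.968 ± 0.692. The order was not the same in every group. In KO_Oil, Hspa1b had 0.373 ± 0.0208 CPM per kb (n = 2), below Hsph1 at 2.48 ± 0.271 and above Hspa1a at 0.162 ± 0.16. In KO_CCL4, Hspb1 had 4.09 ± 1.38 CPM per kb (n = 3), below Bag3, Dnajb1 and Hsph1.

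**Figure D2:**
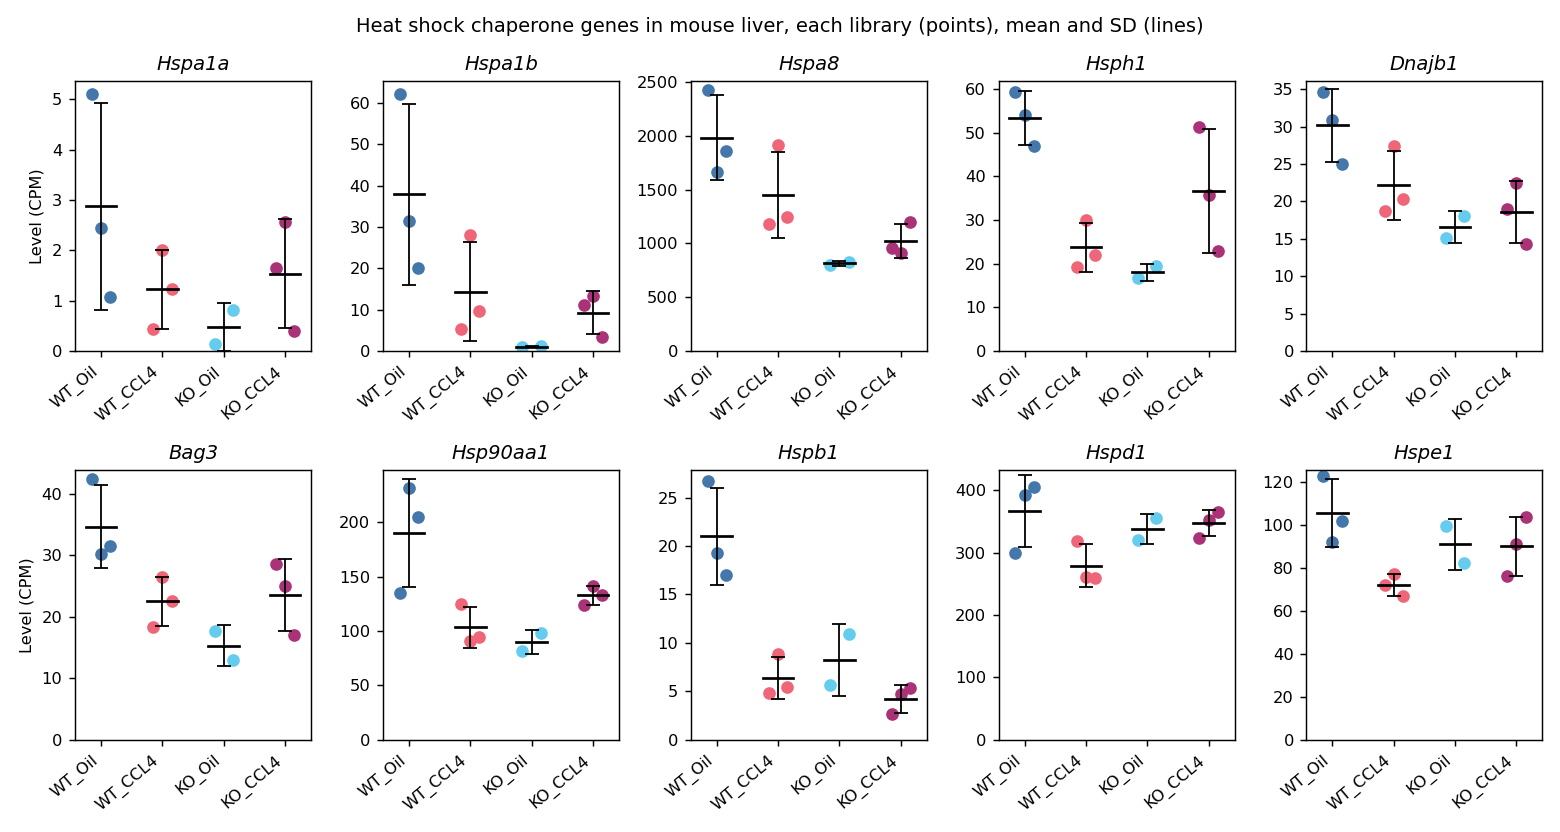
Level of each member in each library (CPM, points), with the mean and SD of each group (lines), for wild-type (WT) and Hmgb2-/- (KO) liver after oil or CCl4. Each panel has its own axis from 0. WT_Oil has the highest mean for all 10 genes, and the 2 KO_Oil libraries of Hspa1b sit at 1.01 and 1.09 CPM.

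After oil, knockout liver held less RNA of several cytosolic chaperones than wild-type liver. Of the 10 members 5 were lower in knockout and none was higher (edgeR's quasi-likelihood test, adjusted p below 0.05 over all genes tested), where 4.11% of all genes tested passed in either direction, 2.19% higher and 1.92% lower. The members that fell were the inducible Hspa1b, the constitutive Hspa8, Hsph1, Bag3 and Hsp90aa1. All 10 fold changes were below 0, as were 49.0% of all genes tested, with a median log2 fold change of -1.23 against 0.01 over all genes tested. For 8 members both knockout libraries were below all wild-type libraries, which 19.2% of all genes showed, and the exceptions were the mitochondrial Hspd1 and Hspe1.

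Among the HSP70 genes, Hspa1b had 62.2, 31.3 and 20.1 CPM in WT_Oil 1, 2 and 3 and 1.01 and 1.09 CPM in KO_Oil 11 and 12. The knockout values rest on 7 and 8 reads, against 206 to 548 reads in wild type, and the groups lie far apart although WT_Oil itself spans a wide range. Hspa1b was 35.7-fold lower (log2 fold change -5.16, SE 0.96, adjusted p = 0.0155). Its twin Hspa1a had 5.11, 2.44 and 1.07 CPM in WT_Oil and 0.144 and 0.815 CPM (1 and 6 reads) in KO_Oil. Hspa1a was also lower in both knockout libraries, but at this depth the difference did not pass the test (log2 fold change -2.51, SE 0.999, adjusted p = 0.181). With the reads of the twins summed, the fold change of the pair was -4.72 (log2), with an adjusted p of 0.0189. Hspa1a took 7.02% of the pair's reads in WT_Oil and 31.8% in KO_Oil, the latter from 7 and 15 reads of Hspa1a and Hspa1b. Hspa8, the abundant HSP70 of unstressed cells, had 2428, 1663 and 1861 CPM in WT_Oil and 798 and 831 CPM in KO_Oil. The knockout libraries were close to each other and below the lowest wild-type library. Hspa8 was 2.44-fold lower (log2 fold change -1.28, SE 0.27, adjusted p = 0.022).

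The partners of HSP70 differed in the same direction. Hsph1 had 59.3, 54.0 and 46.9 CPM in WT_Oil and 16.65 and 19.4 CPM in KO_Oil, with narrow groups far from each other. It was 2.96-fold lower in knockout (log2 fold change -1.56, SE 0.30, adjusted p = 0.0181). Bag3 had 42.35, 30.1 and 31.5 CPM in WT_Oil and 17.7 and 12.9 CPM in KO_Oil. Bag3 was 2.26-fold lower (log2 fold change -1.18, SE 0.26, adjusted p = 0.0301), and its groups did not overlap. Dnajb1 had 34.6, 30.95 and 24.9 CPM in WT_Oil and 15.1 and 18.1 CPM in KO_Oil. Although both knockout libraries were below wild type, Dnajb1 did not pass the test (log2 fold change -0.86, SE 0.24, adjusted p = 0.0636).

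Hsp90aa1 had 135, 231 and 205 CPM in WT_Oil and 81.7 and 97.7 CPM in KO_Oil. It was 2.12-fold lower in knockout (log2 fold change -1.09, SE 0.23, adjusted p = 0.026), with WT_Oil 1 the lowest of the wild-type libraries. For the other members but Hspd1, WT_Oil 1 was the highest of the 11 libraries. Hspb1 had 26.7, 19.3 and 17.05 CPM in WT_Oil and 5.60 and 10.9 CPM in KO_Oil. The knockout libraries of Hspb1 were lower but differed from each other, and the test was not passed (log2 fold change -1.34, SE 0.37, adjusted p = 0.0641). The chaperonin genes gave small values that overlapped between genotypes. Hspd1 had 299.9, 393 and 406 CPM in WT_Oil and 321 and 355 CPM in KO_Oil (log2 fold change -0.12, SE 0.19, adjusted p = 0.788). Hspe1 had 123, 92.0 and 102 CPM in WT_Oil and 99.35 and 82.4 CPM in KO_Oil (log2 fold change -0.215, SE 0.18, adjusted p = 0.563).

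The calls in knockout against wild type after oil rest on both KO_Oil libraries. A fit with 1 library in a group has less power for every gene, so lost calls there do not single out the members. Over the fits that leave out 1 library, the log2 fold change ran from -5.441 to -4.607 for Hspa1b and from -1.397 to -1.115 for Hspa8. It ran from -1.672 to -1.45 for Hsph1, from -1.413 to -0.961 for Bag3 and from -1.283 to -0.922 for Hsp90aa1. Without KO_Oil 11 or without KO_Oil 12, none of the members was called, and the lone library was then assumed to vary like the other groups. Without KO_Oil 11 the adjusted p was 0.156 for Hspa1b, 0.186 for Hspa8, 0.172 for Hsph1, 0.132 for Bag3 and 0.241 for Hsp90aa1. Without KO_Oil 12 these were 0.106, 0.119, 0.0891, 0.187 and 0.107. Without WT_Oil 3 there were 2 calls, Hspa1b and Hsph1, with Hspa8 at 0.0704, Bag3 at 0.0779 and Hsp90aa1 at 0.0993. Bag3 was also lost without WT_Oil 1 (0.0566) and Hsp90aa1 without WT_Oil 2 (0.0689), and limma-voom lost Hspa1b (0.107). With WT_Oil 1 and WT_CCL4 5 left out together, the same 5 genes were called, and Hspa1b was lower by 4.61 on the log2 scale (adjusted p = 0.00805). DESeq2 called 7 members lower, with Dnajb1 (0.0238) and Hspb1 (0.0141) added, where it called 7.70% of all genes. The authors' deposited table lists the same 7 members as lower in knockout after oil at an adjusted p below 0.05, with 5.46% of its genes past that mark, and a log2 ratio of -3.33 for Hspa1b.

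**Figure D3:**
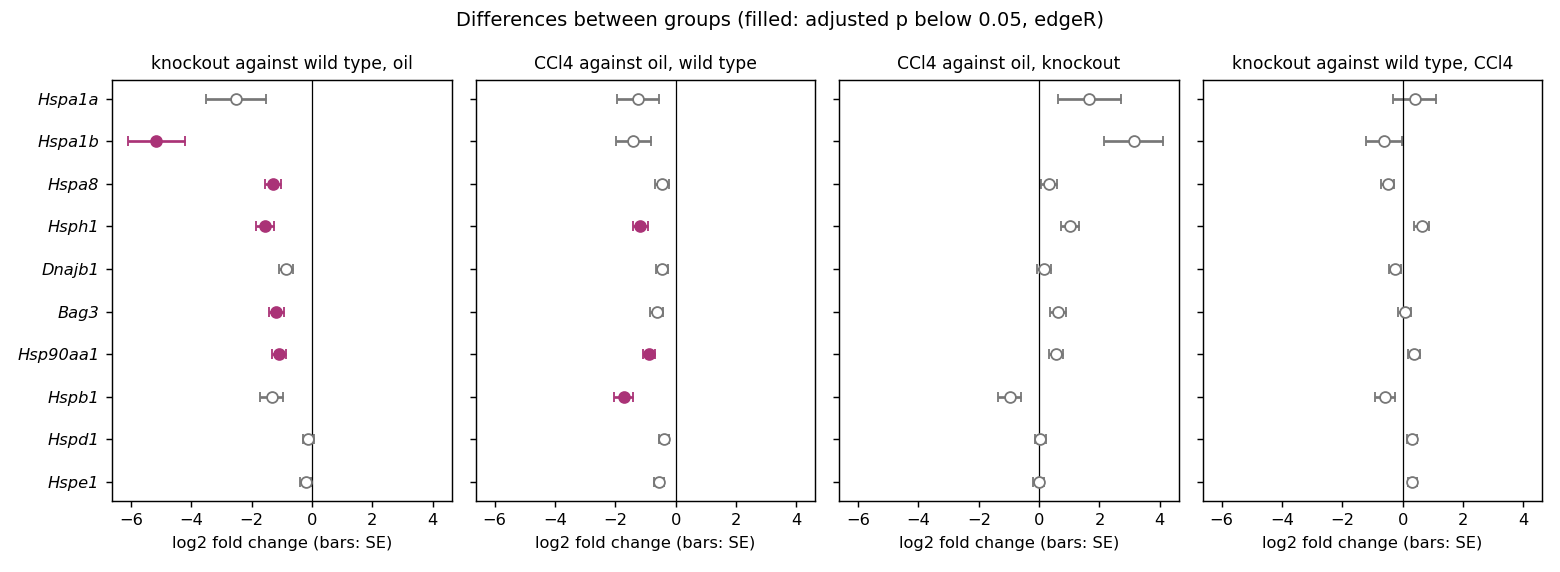
Log2 fold change of each member in 4 comparisons (points, bars are the SE of the edgeR fit, filled points have an adjusted p below 0.05). The 5 filled points of knockout against wild type after oil and the 3 of CCl4 against oil in wild type all lie below 0, and no point is filled in the other comparisons.

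In wild-type liver the RNA of some chaperones was lower after CCl4. Of the 10 members 3 fell after CCl4 and none rose, where 8.48% of all genes tested passed in either direction, 6.98% higher and 1.51% lower. The 3 were the small heat shock gene Hspb1, the HSP110 gene Hsph1 and the inducible HSP90 gene Hsp90aa1. All 10 fold changes were below 0, as were 52.1% of all genes tested, and the members' median was -0.75 (log2) against -0.02 over all genes. For 5 members every CCl4 library was below every oil library (Hspb1, Hsph1, Hsp90aa1, Bag3 and Hspe1), which 11.7% of all genes showed. This comparison shares the WT_Oil libraries with that of the genotypes after oil.

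Hspb1 had 26.7, 19.3 and 17.05 CPM in WT_Oil and 4.78, 8.90 and 5.46 CPM in WT_CCL4. It was 3.30-fold lower after CCl4 (log2 fold change -1.72, SE 0.32, adjusted p = 0.00699), with a wide gap between the groups. This call remained with each of the 11 libraries left out in turn (adjusted p of 0.00309 to 0.0454). Hsph1 had 59.3, 54.0 and 46.9 CPM in WT_Oil and 19.2, 30.01 and 22.0 CPM in WT_CCL4. It was 2.25-fold lower (log2 fold change -1.17, SE 0.25, adjusted p = 0.015), and the groups did not overlap. Hsp90aa1 had 125, 90.9 and 94.4 CPM in WT_CCL4, all below the 135 CPM of WT_Oil 1. It was 1.84-fold lower (log2 fold change -0.88, SE 0.20, adjusted p = 0.0198).

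The other members did not pass the test in wild type. Hspe1 had 72.0, 77.1 and 66.8 CPM in WT_CCL4 against 92.0 to 123 CPM in WT_Oil, which left it near the threshold (log2 fold change -0.55, SE 0.16, adjusted p = 0.0554). Bag3 had 18.4, 26.4 and 22.6 CPM in WT_CCL4, again below all oil libraries (log2 fold change -0.63, SE 0.22, adjusted p = 0.103). The HSP70 genes overlapped between treatments, with WT_CCL4 5 inside the range of the oil libraries. Hspa1b had 5.41, 28.1 and 9.61 CPM in WT_CCL4 4, 5 and 6 (log2 fold change -1.40, SE 0.58, adjusted p = 0.163), and Hspa8 had 1184, 1912 and 1250 CPM (log2 fold change -0.45, SE 0.23, adjusted p = 0.255). Hspa1a had 0.44, 2.01 and 1.22 CPM, or 7, 23 and 13 reads (adjusted p = 0.308). Dnajb1 had 18.7, 27.4 and 20.3 CPM (log2 fold change -0.45, SE 0.20, adjusted p = 0.209) and Hspd1 had 318, 260.4 and 259 CPM (log2 fold change -0.39, SE 0.17, adjusted p = 0.175). WT_CCL4 5 was the highest WT_CCL4 library for 8 of the 10 members (all but Hspd1 and Hsp90aa1) and the lowest for Hsp90aa1.

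The number of members called in wild type moved with single libraries. That of all genes tested moved as well, from 469 to 2245 over the 11 fits that leave out 1 library, against 1431 in the full fit. Without WT_CCL4 5 there were 5 calls of members, with Hspa1b at -2.35 (log2, adjusted p = 0.0183) and Hspa8 at -0.70 (adjusted p = 0.0477) added. Without WT_CCL4 6 Hspb1 alone was called, with Hsph1 at an adjusted p of 0.0822 and Hsp90aa1 at 0.105. Hsph1 was lost without WT_CCL4 4 (0.0816), and Hsp90aa1 without WT_Oil 2 (0.0791), without WT_Oil 3 (0.0938) and in a fit of the groups compared alone (0.0556). With WT_Oil 1 and WT_CCL4 5 left out together, a pair chosen after seeing the data, there were 4 calls. These were the first 3 genes and Hspa1b (-1.80, adjusted p = 0.0396), and more of all genes were called in that fit too. DESeq2 also called 4 members, the first 3 and Hspe1 (adjusted p = 0.0232), where it called 11.1% of all genes. The authors' deposited table lists 4 members as lower after CCl4 in wild type, these 3 and Hspe1 (adjusted p = 0.00751), where 9.73% of its genes passed.

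In knockout liver no member passed the test for CCl4 against oil, where 0.652% of all genes tested did. At an unadjusted p below 0.05 there were 5 members, against 13.0% of all genes, and DESeq2 called 1 member, Hspa1b (log2 fold change 3.13, adjusted p = 0.0331), where it called 2.31% of all genes. Most values lay above 0 here, 8 of 10 against 51.7% of all genes, with a median of 0.45 (log2) against 0.02 over all genes. For Hspa1b, Hspa8, Hsph1 and Hsp90aa1 every CCl4 library was above both oil libraries, which 15.6% of all genes showed. For Hspb1 every CCl4 library was below both, which 14.0% of all genes showed.

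Hspa1b had 11.03, 13.35 and 3.32 CPM in KO_CCL4 24, 25 and 15, against 1.01 and 1.09 CPM in KO_Oil (log2 fold change 3.14, SE 0.99, adjusted p = 0.19). The lowest CCl4 library was thus above both oil libraries, but the CCl4 libraries spread widely. Hsph1 had 51.4, 35.7 and 22.9 CPM in KO_CCL4 and 16.65 and 19.4 CPM in KO_Oil (log2 fold change 1.02, SE 0.30, adjusted p = 0.161). Without KO_CCL4 15, its lowest CCl4 library, Hsph1 was called (log2 fold change 1.27, adjusted p = 0.0245). That fit sets only E-titled CCl4 libraries against S-titled oil libraries, so treatment and title letter cannot be told apart in it. The number of all genes called in this comparison also moved with single libraries. Hsp90aa1 had 124, 142 and 133 CPM in KO_CCL4, a narrow group above the 81.7 and 97.7 CPM of KO_Oil (log2 fold change 0.57, SE 0.23, adjusted p = 0.312). Hspa8 had 958, 907 and 1203 CPM (log2 fold change 0.33, SE 0.26, adjusted p = 0.653). Bag3 had 28.5, 24.97 and 17.0 CPM, of which KO_CCL4 15 fell within the oil range (log2 fold change 0.62, SE 0.26, adjusted p = 0.329).

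Hspb1 went the other way, with 2.61, 4.70 and 5.33 CPM in KO_CCL4 against 5.60 and 10.9 CPM in KO_Oil, just without overlap (log2 fold change -0.97, SE 0.38, adjusted p = 0.30). Hspa1a had 1.64, 2.56 and 0.402 CPM (17, 31 and 4 reads, log2 fold change 1.66, adjusted p = 0.552). Dnajb1 had 19.05, 22.4 and 14.3 CPM (log2 fold change 0.17, adjusted p = 0.843). Hspd1 had 324, 352 and 365 CPM and Hspe1 had 76.0, 90.8 and 103 CPM, at log2 fold changes of 0.04 and -0.01 from oil. The titles of KO_CCL4 24 and 25 carry another letter than that of KO_CCL4 15. KO_CCL4 15 was the lowest of the group for Hspa1a, Hspa1b, Hsph1, Dnajb1 and Bag3, and the highest for Hspa8, Hspb1, Hspd1 and Hspe1. With both E-titled libraries left out, the difference from oil was 1.66 (log2) for Hspa1b, 0.35 for Hsph1, 0.16 for Bag3 and 0.57 for Hsp90aa1, and it turned below 0 for Hspa1a (-0.26) and Dnajb1 (-0.21). What the letters stand for is not given, and their part in the result was not tested.

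After CCl4 no member was called between the genotypes, by edgeR or under any alternative run, where edgeR called 1.20% and DESeq2 4.29% of all genes tested. The members' median was 0.19 (log2) against 0.00 over all genes, and 2 members had an unadjusted p below 0.05, against 16.7% of all genes. These were Hsph1, higher in knockout by 0.63 (log2, SE 0.25, adjusted p = 0.234), and Hspa8, lower by 0.50 (SE 0.23, adjusted p = 0.291). The WT_CCL4 and KO_CCL4 libraries of both overlapped. With the E-titled libraries left out, Hsph1 stood at -0.03. Hspb1, at 4.78 to 8.90 CPM in wild type and 2.61 to 5.33 CPM in knockout, differed by -0.59 (SE 0.34, adjusted p = 0.422). Hspd1 was the member without overlap, at 259 to 318 CPM in wild type and 324 to 365 CPM in knockout (log2 fold change 0.31, SE 0.17, adjusted p = 0.376), as were 9.25% of all genes with knockout higher. Hspe1 differed by 0.32 (adjusted p = 0.346), Hsp90aa1 by 0.36 (adjusted p = 0.398), Hspa1a by 0.39 (adjusted p = 0.837) and Bag3 by 0.07 (adjusted p = 0.912). Hspa1b differed by -0.62 (SE 0.60, adjusted p = 0.657) and Dnajb1 by -0.25 (adjusted p = 0.596). The value of Hspa1b turned to 0.33 without WT_CCL4 5.

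The difference between the genotypes in the effect of CCl4 was tested as an interaction. No member passed by edgeR, where 0.101% of all genes tested did, and 7 members had an unadjusted p below 0.05, against 13.7% of all genes. All 10 values were above 0, as were 50.7% of all genes, with a median of 1.02 (log2) against 0.01. Hsph1 came nearest, at 2.19 (SE 0.39, adjusted p = 0.057), from a log2 fold change of -1.17 after CCl4 in wild type and 1.02 in knockout. Hsp90aa1 followed at 1.45 (SE 0.31, adjusted p = 0.0862), Hspa1b at 4.54 (SE 1.14, adjusted p = 0.127) and Bag3 at 1.25 (SE 0.34, adjusted p = 0.154). Hspb1, which lay lower after CCl4 in both genotypes, had an interaction of 0.75 (SE 0.50, adjusted p = 0.557). DESeq2 called the interaction of 4 members, Hsph1 (adjusted p = 0.000154), Hsp90aa1 (0.00187), Hspa1b (0.0126) and Bag3 (0.0488), where it called 2.30% of the 16198 genes with an adjusted p. By edgeR, Hsph1 was called without WT_CCL4 5 (0.0182), without KO_CCL4 25 (0.0394) and without KO_CCL4 15 (0.0113). The last of these fits keeps only E-titled libraries in KO_CCL4. Hspa1b was called without WT_CCL4 5 (0.0229), and Hsp90aa1 without WT_Oil 1 (0.0332). With WT_Oil 1 and WT_CCL4 5 left out together, a pair chosen after seeing the data, Hsph1 (0.0229), Hspa1b (0.0208) and Hsp90aa1 (0.0144) were called. WT_CCL4 5 was the highest WT_CCL4 library for most members (median deviation 0.512, log2), so leaving it out lowers their level in that group. More of all genes were called in this fit as well. Without WT_CCL4 4 no member was called, with Hsph1 at 0.177 and Hspa1b at 0.24. No member was called by limma-voom, with Hsph1 at 0.0915 and Hspa1b at 0.296, nor without KO_Oil 11 (Hsph1 at 0.27) or KO_Oil 12 (Hsph1 at 0.17). With the E-titled libraries left out, the interaction was 1.53 for Hsph1 (adjusted p = 0.0519), 3.08 for Hspa1b (0.283), 0.80 for Bag3 (0.303) and 1.47 for Hsp90aa1 (0.089). All 4 groups enter an interaction, so it shares the 2 KO_Oil libraries with the genotype comparison after oil.

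By mean level the groups ranked differently from gene to gene, in part on differences that did not pass the test. Hspa1b and Hspa8 ranked WT_Oil, WT_CCL4, KO_CCL4 and KO_Oil from high to low, as did Dnajb1, and no neighbouring pair in that order passed edgeR's test. Hspa1a, with few reads in every group, Hsph1, Hsp90aa1 and Bag3 ranked WT_Oil, KO_CCL4, WT_CCL4 and KO_Oil, and their difference between KO_CCL4 and WT_CCL4 did not pass the test. Hspb1 ranked WT_Oil at 21.0 ± 5.04 CPM, KO_Oil at 8.24 ± 3.73, WT_CCL4 at 6.38 ± 2.21 and KO_CCL4 at 4.21 ± 1.42, so its lowest group was the injured knockout. Hspd1 kept within 279 ± 33.9 (WT_CCL4) and 366 ± 57.8 CPM (WT_Oil), and Hspe1 within 72.0 ± 5.18 (WT_CCL4) and 105.5 ± 15.8 CPM (WT_Oil). Comparisons between groups that differ in both genotype and treatment stand in the authors' deposited table. In it, injured knockout against wild type after oil was lower for Hspb1 (log2 ratio -2.17, adjusted p = 4.82e-08), Hspa8 (-0.93, adjusted p = 0.00776) and Dnajb1 (-0.68, adjusted p = 0.0463), where 2.99% of its genes passed. In the same deposited table, uninjured knockout against wild type after CCl4 was lower for Hspa1b (-2.21, adjusted p = 0.00499) and Hspa8 (-0.79, adjusted p = 0.0303), where 12.2% of its genes passed.

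**Figure D4:**
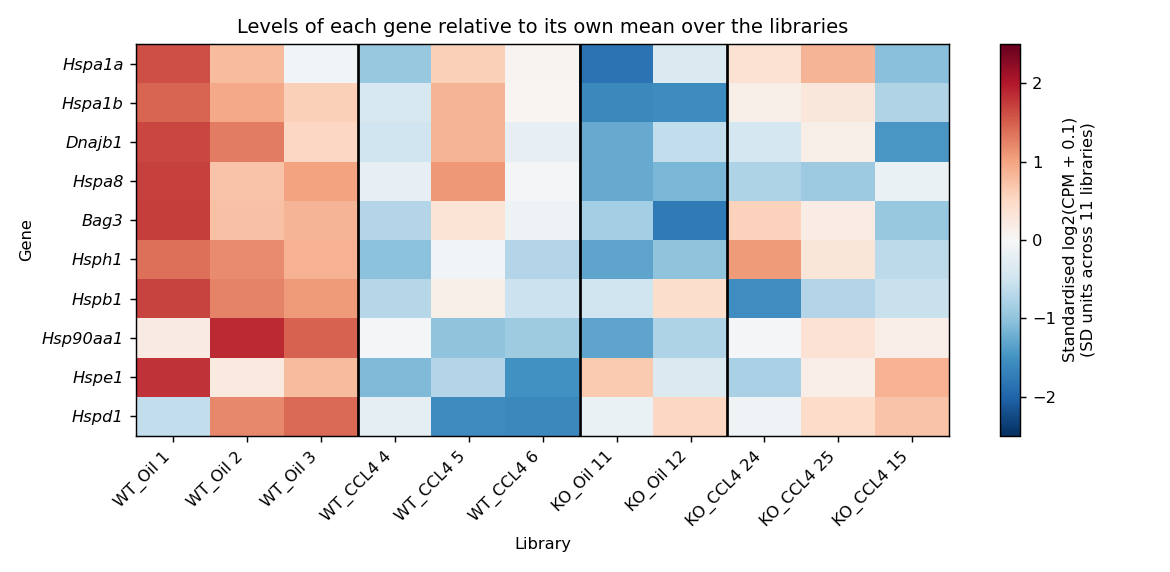
Level of each member in each of the 11 libraries as standardised log2(CPM + 0.1), that is, in SD units from the gene's own mean (colour scale, red above and blue below the mean), with black lines between groups. The WT_Oil libraries are red for nearly all genes, KO_Oil is blue for the HSP70 genes, their partners and Hsp90aa1, and Hspd1 and Hspe1 follow another pattern.

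Across the 11 libraries the HSP70 genes and their partners moved together, as a description of libraries that fall into groups and differ in depth. The highest pairwise Pearson correlation of log2 CPM was that of Hspa1b with Bag3 (0.928), followed by Hspa1b with Dnajb1 (0.898) and Hsph1 with Bag3 (0.893). The twins Hspa1a and Hspa1b reached 0.86. The lowest value among the HSP70 genes, Hsph1, Dnajb1 and Bag3 was that of Hspa1a with Hspa8 (0.593). Hspd1 stood away from this group, with values from -0.127 (Hspa1a) to -0.059 (Bag3) against the twins, Hspa8, Dnajb1 and Bag3, and reached 0.733 with Hsp90aa1. Its partner in the chaperonin, Hspe1, had 0.457 with Hspd1 and 0.582 with Hspb1. The mean of the members' standardised levels was 0.85 to 1.275 in WT_Oil, -0.59 to 0.05 in WT_CCL4, -0.94 and -0.67 in KO_Oil and -0.38 to 0.11 in KO_CCL4.

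Among 15317 other genes, those most like this mean over the 11 libraries were BC004004 (Pearson's r 0.953), Tmem135 (0.937), Jmjd6 (0.931), Nat6 (0.929), Hyal1 (0.926) and Vps13d (0.921). Jmjd6 encodes a hydroxylase of lysine residues and Hyal1 a lysosomal hyaluronidase. Nat6 and Hyal1 overlap on chromosome 9 in the annotation, so that their reads may be shared. BC004004 had 102 ± 2.35 CPM in WT_Oil, 76.1 ± 9.30 in WT_CCL4, 64.5 ± 2.73 in KO_Oil and 79.0 ± 4.72 in KO_CCL4, a narrower range than that of the inducible members. Hsp90ab1, the constitutive cytosolic HSP90, ranked 19 by likeness at 0.892, and Hspa9, the mitochondrial HSP70, and Hspa5, the HSP70 of the endoplasmic reticulum, reached 0.712 and 0.657. Hsf1 had -0.27.

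The rest of the chaperone network was followed in 10 lists of 105 genes, of which 100 were tested, made of HSP70 and HSP110 relatives, HSP90 cochaperones, J-domain proteins, exchange factors, small heat shock proteins, the TRiC chaperonin, mitochondrial and endoplasmic reticulum chaperones, heat shock factors and other HSF1 targets. In knockout against wild type after oil 3 of the 100 fell and none rose, at a median of -0.11 (log2), where 1.92% of all genes tested were lower and 2.19% higher, so that this count is near the share of all genes. They were Creld2, a disulfide isomerase of the endoplasmic reticulum (-1.23, SE 0.24, adjusted p = 0.0189), Clpx, the unfoldase of a mitochondrial protease (-1.76, SE 0.42, adjusted p = 0.0372), and Stip1, which links HSP70 to HSP90 (-0.90, SE 0.22, adjusted p = 0.0415). Hsp90ab1 had 1241 ± 232 CPM in WT_Oil and 745 ± 125 CPM in KO_Oil and did not pass (-0.74, SE 0.23, adjusted p = 0.0943), nor did Hspa5 (-0.76, SE 0.23, adjusted p = 0.0816) or Hspa9 (-0.32, SE 0.19, adjusted p = 0.365).

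In wild type after CCl4, 3 of these 100 genes rose and 3 fell, at a median of -0.25 (log2), where 6.98% of all genes tested were higher and 1.51% lower. Those that rose were Serpinh1, the collagen chaperone HSP47 (1.79, SE 0.40, adjusted p = 0.0175), Atf3, a stress transcription factor (1.73, SE 0.37, adjusted p = 0.0146), and Hmox1, the heme oxygenase (1.23, SE 0.26, adjusted p = 0.0117). Atf3 and Hmox1 stand in the list of other HSF1 targets and are not chaperones. Those that fell were Ahsa1, which activates the HSP90 ATPase (-0.58, SE 0.15, adjusted p = 0.0307), the J-domain gene Dnajb2 (-0.71, SE 0.19, adjusted p = 0.0396) and the mitochondrial protease Clpp (-0.71, SE 0.20, adjusted p = 0.0464). None of the 100 was called for CCl4 in knockout (median 0.04), for the genotypes after CCl4 (median 0.13) or for the interaction (median 0.25).

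Neither Hsf1 nor Hsf2, which encode heat shock factors, was called in any of the 5 comparisons. Hsf1 had 12.9 ± 1.70 CPM in WT_Oil, 14.3 ± 0.245 in WT_CCL4, 15.3 ± 4.34 in KO_Oil and 13.6 ± 2.22 in KO_CCL4, with overlapping knockout and wild-type libraries after oil (log2 fold change 0.25, SE 0.21, adjusted p = 0.566). Hsf2 differed by -0.11 in that comparison (SE 0.29, adjusted p = 0.888). HSF1 is mostly controlled as a protein, which these data do not measure. The cold-inducible RNA-binding genes Cirbp and Rbm3, which rise as body temperature drops, differed by 0.05 (SE 0.29, adjusted p = 0.949) and by -0.12 (SE 0.25, adjusted p = 0.847) between the genotypes after oil.

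Other gene groups also differed between the same groups of libraries, in either direction, and their part in the chaperone results was not tested. Of 15 core clock genes tested, 8 were higher and 2 lower in knockout after oil, with the smallest p for Per3 (log2 fold change 3.70, SE 0.43, adjusted p = 0.00253), Ciart (2.79, SE 0.35, adjusted p = 0.00343) and Cry2 (1.11, SE 0.15, adjusted p = 0.00379). In knockout, 2 clock genes rose and 2 fell after CCl4, among them Ciart (-1.86, SE 0.33, adjusted p = 0.0298) and Arntl (2.96, SE 0.58, adjusted p = 0.0435). In wild type 2 rose, Ciart (1.29, SE 0.32, adjusted p = 0.0288) and Per3 (1.47, SE 0.39, adjusted p = 0.0364), and none was called for the genotypes after CCl4. For the interaction 1 clock gene was called, Ciart (-3.15, SE 0.46, adjusted p = 0.0259). The time of day at which the livers were taken is not given. Of 8 glucocorticoid targets tested, 2 were lower in knockout after oil, Zbtb16 (-2.00, SE 0.26, adjusted p = 0.00367) and Tsc22d3 (-1.30, SE 0.22, adjusted p = 0.0112). After CCl4 Zbtb16 was lower in knockout too (-1.78, SE 0.21, adjusted p = 0.00419), and Tsc22d3 rose after CCl4 in knockout (1.16, SE 0.22, adjusted p = 0.0407). Of 14 immediate early genes tested, 8 rose after CCl4 in wild type, led by Egr1 (2.80, SE 0.39, adjusted p = 0.00182), Btg2 (2.06, SE 0.32, adjusted p = 0.00282) and Junb (1.22, SE 0.25, adjusted p = 0.0113). Egr1 and Btg2 were lower in knockout after CCl4 (-3.21 and -1.64, adjusted p of 0.00419 and 0.0315), and none of the 14 was called between the genotypes after oil.

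The cell type markers moved with the groups as well. The summed level of the 9 hepatocyte markers was 57500 to 64900 CPM in WT_Oil and 40000 to 52700 in WT_CCL4. It was 44900 to 49600 in KO_Oil and 42500 to 56800 in KO_CCL4. This sum and the chaperone RNA were both highest in WT_Oil. The sums of the other groups overlapped, while the mean of the members' standardised levels was lowest in KO_Oil. Apob, at a mean of 24150 CPM in WT_Oil, weighed most in the sum, and single markers differed. By mean, Ttr (5280 against 4163 CPM), F2 and Asgr1 were higher in KO_Oil than in WT_Oil, and the rest of the 9 were lower. One of the 9, Cyp2e1, was called lower after CCl4 in wild type (-1.41, SE 0.30, adjusted p = 0.0135), and none was called between the genotypes after oil. All 6 markers of monocyte-derived macrophages and 6 of 7 markers of stellate cells rose after CCl4 in wild type, with sums of 67.2 to 134 CPM in WT_Oil and 255 to 715 CPM in WT_CCL4 for the former and 403 to 469 against 872 to 2170 CPM for the latter. In KO_Oil these sums were 136 to 217 CPM and 463 to 506 CPM, and no marker of either list was called between the genotypes after oil. In that comparison 1 of 4 B cell markers, Ms4a1 (log2 fold change 1.97, SE 0.33, adjusted p = 0.00957), and 1 of 3 T and NK cell markers tested, Nkg7 (2.65, SE 0.65, adjusted p = 0.0401), were higher in knockout. The T and NK cell sum was 1.36 to 1.98 CPM in WT_Oil, 1.41 to 2.70 in WT_CCL4, 4.88 to 8.56 in KO_Oil and 1.06 to 4.20 in KO_CCL4, and the B cell sum 3.60 to 6.47, 12.2 to 16.9, 8.61 to 9.65 and 9.73 to 11.4 CPM. After CCl4 in wild type 3 of 4 B cell markers and 2 of 3 neutrophil markers tested rose, as did 1 of 5 bile duct and 1 of 5 Kupffer cell markers. No marker of the hepatocyte, macrophage and stellate lists was at 0 in any group. Their part in the chaperone differences was not tested.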

How the data were processed

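Per the labels' protocols, livers were frozen and libraries made with a stranded total RNA kit. The design text names capped RNA instead, and which is right is not given. The submitters' processing notes name Bowtie and DESeq2, without versions, and the builds mm10 and GRCm38. The deposited table is USeq output and holds, per the file headers, raw read counts: an alignment overlapping a gene by a base was counted, and a pair once. The same table holds FPKM values from the authors, which entered no test. It also holds the authors' log2 ratios and scores (a score is a multiple of the negative log10 of an adjusted p), quoted here as theirs with the sign turned to knockout or CCl4 minus the other group. A deposited list of gene identifiers flagged for few or very many counts holds no values and was not used.

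The quasi-likelihood test of edgeR 4.0.16 in R 4.3.3, with TMM scaling, was run on 1 fit of 4 group means over 11 libraries. Of 19207 genes, 16866 passed filterByExpr with the groups given, at a count of 10 and a total of 15. A gene was called where its p, adjusted by Benjamini-Hochberg across the genes tested, was under 0.05. The SE is the size of the log2 fold change over the square root of the F statistic. CPM per kb divides CPM by the deposited gene length. Pearson correlations used log2 CPM with a prior count of 2. The fit was tested on simulated data. Table starts were raised by 1, since 17280 of 19134 then equalled GENCODE M21 and 122 did as deposited. Promoters are from RefSeq (GRCm38.p6).

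The members and lists were chosen with earlier results of these data known. Named are the members, up to 3 called genes a list and comparison with the smallest p, Hsf1, Hsf2, Cirbp, Rbm3, Hspa5, Hspa9 and Hsp90ab1, the 6 genes most like the members' mean (at least 1 CPM), and Hmgb2. Alternatives were RLE and upper quartile scaling, no filter, a mean of at least 5 CPM, DESeq2 1.42.0, limma-voom (limma 3.58.1), a fit of the compared groups alone, leaving out each library, both E-titled libraries left out, the twins summed and, added after seeing the data, WT_Oil 1 and WT_CCL4 5 left out together.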

Additional observations from a re-analysis of the deposited data

Results flagged for a closer look

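The effect of CCl4 on Ciart, a repressor of the circadian clock, differed between the genotypes by a test of the difference itself (interaction of -3.148 on the log2 scale, SE 0.46, adjusted p = 0.0259 by edgeR). Its log2 fold change after CCl4 was 1.29 in wild type and -1.86 in knockout, and both values passed the test. By mean level Ciart had 3.44 CPM in WT_Oil, 8.33 in WT_CCL4, 23.7 in KO_Oil and 6.55 in KO_CCL4, so the uninjured knockout stood highest. The time of day at which the livers were taken is not given, and its part was not tested. The call was lost in 6 of the 11 fits that leave out 1 library: without WT_Oil 2 (adjusted p = 0.0825), WT_Oil 3 (0.0552), WT_CCL4 4 (0.0973), WT_CCL4 6 (0.0657), KO_Oil 11 (0.172) or KO_Oil 12 (0.106). The log2 value ran from -3.458 to -2.856 over the 11 fits by edgeR.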

How the results depend on the processing

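Of the 8 calls of members, none changed sign in 168 values under the alternatives, and 22 of these no longer passed. With each library left out in turn, the number of members called ran from 1 to 5 for CCl4 against oil in wild type, 0 to 1 in knockout, 0 to 7 for knockout against wild type after oil, 0 to 0 after CCl4 and 0 to 2 for the interaction. DESeq2 called 1 member for CCl4 in knockout and 4 for the interaction, and without WT_Oil 1 and WT_CCL4 5 the interaction gave 3. The cause was not tested. No paired analysis was possible because the groups share no replicate number.

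Values that did not pass the test changed sign in 18 cases. For CCl4 against oil in knockout, Hspe1 went from -0.012 to 0.013 with upper quartile scaling, 0.008 with the stricter filter, 0.135 and 0.097 without KO_Oil 11 or KO_CCL4 24 and 0.194 without the E-titled libraries. Hspe1 ran from -0.136 to 0.135 and Hspd1 from -0.027 (without KO_Oil 11) to 0.119 over the left-out libraries, and Hspa1a and Dnajb1 went to -0.262 and -0.209 without the E-titled libraries. For knockout against wild type after CCl4, Hspa1a went to -0.058 and -0.203 without WT_CCL4 4 or KO_CCL4 25, -1.507 without the E-titled libraries and -0.514 with the twins summed. Over the left-out libraries Hspa1a ran from -0.203 to 0.976, Hspa1b from -1.026 to 0.326 and Bag3 from -0.093 to 0.251. Bag3 went to -0.065 and -0.093 without WT_CCL4 4 or KO_CCL4 24 and -0.376 without the E-titled libraries, which put Hsph1 at -0.025. Hspa1b went to 0.326 without WT_CCL4 5 and 0.329 without WT_Oil 1 as well.

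The number of all genes called moved as well. For CCl4 in wild type it was 1431, and 766 with the stricter filter and 2229 without WT_Oil 1 and WT_CCL4 5. In knockout it was 110, and 390 by DESeq2, 55 by limma-voom, 48 in the groups compared and 224 without those 2 libraries. For the genotypes after oil it was 694, and 1297 by DESeq2. After CCl4 it was 202, and 110 with the stricter filter, 723 by DESeq2, 104 by limma-voom, 31 in the groups compared, 42 without the E-titled libraries and 960 without those 2 libraries. For the interaction it was 17, and 372, 257 and 321 by DESeq2, without the E-titled libraries and without those 2 libraries. With each library left out these ran from 469 to 2245, 11 to 374, 18 to 1154, 14 to 625 and 0 to 285. Low depth limits Hspa1a, with 1 to 45 reads a library.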
